A study of Homo sapiens with 6 samples.

Results

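The genes described here are 9 members of the TGFβ pathway: the ligands TGFB1 and TGFB2, the receptors TGFBR1 and TGFBR2, the signal transducers SMAD2 and SMAD3, and SMAD7, SKIL and PMEPA1, which are induced by the pathway and restrain it. They were chosen by gene symbol, with earlier results of these data known, and all 9 were among the 61155 symbols of the count table. Counts of members called are therefore not independent evidence. Bulk RNA sequencing compared wild-type (WT) H7 human embryonic stem cells (hESCs), an established cell line, with H7 cells in which RPS6KB1, the gene of the kinase S6K1, was disrupted with CRISPR/Cas9 (S6K1-/-), in 3 libraries per group. In the labels the second group appears as KO and as a knockdown, and all 6 libraries are marked both as undifferentiated and as week 5, whereas the methods describe RNA from undifferentiated hESCs. Both groups were grown without feeder cells on Matrigel in TeSR-E8 medium. The S6K1-/- cells were 1 clone, so that an effect of the genotype and a property of that clone cannot be told apart, and the labels do not say whether the libraries of a group come from separate cultures, so the p-values measure the spread between these libraries, which may be technical.

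TGFβ ligands are secreted in a latent form and, once released, bring together the type II receptor TGFBR2 and the type I receptor TGFBR1. The activated type I receptor phosphorylates SMAD2 and SMAD3, which join SMAD4 and act on target genes in the nucleus. Among the targets are genes of the pathway's own brakes, so that their RNA is often read as a sign of the signal. In human pluripotent cells the same SMADs also carry the signals of Nodal and activin, which help to keep the cells undifferentiated, and E8-type media contain a ligand of this class.

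Expression is given as counts or as CPM, counts scaled to a common library size after TMM normalisation, and values after ± are the SD (n = 3 libraries). Library totals ranged from 21896698 to 24473013 counts, and mitochondrial genes took from 8.54% to 9.74% of a library. RPS6KB1 had 831, 791 and 777 counts in WT and 464, 464 and 438 in S6K1-/- hESCs, with no overlap between the groups. The percent change was -40.6% (edgeR adjusted p = 2.52e-07), and its RNA was still present in every S6K1-/- library. These counts cover the whole gene and not only the targeted exons. The paper shows the deletion of S6K1 by western blotting and by PCR genotyping of the clones, and RNA counts do not measure protein. Its paralog RPS6KB2 had a log2 fold change of 0.07 (95% interval -0.06 to 0.19). All 12 pluripotency markers were tested, and POU5F1 (log2 fold change -0.04), SOX2 (-0.04) and NANOG (0.05) did not pass the test, while DNMT3B was lower (-0.35). At an unadjusted p under 0.05, 1 of the 12 was higher and 5 were lower, beside 11.8% and 14.5% of all genes tested, among them ZFP42 (0.17) and SALL4 (-0.17), named after their values were seen. Markers of other cell types were partly present, and the genes named next were chosen after their values were seen. The endoderm list, with 6 of 10 markers tested, summed to from 14.96 to 17.3 CPM in WT and from 11.9 to 13.0 CPM in S6K1-/- hESCs, its most abundant markers being FOXA2 (6.08 and 3.32 CPM, edgeR adjusted p = 0.00108) and HHEX (5.54 and 7.11 CPM), while SOX17, GATA6 and TTR had from 0 to 2 counts in every library. The amnion and trophoblast list, with 4 of 12 tested, summed to from 23.99 to 25.96 CPM and from 20.6 to 22.7 CPM, led by GABRP (log2 fold change -0.03) and KRT7 (5.02 and 2.83 CPM, edgeR adjusted p = 0.00103), while CDX2, HAND1 and CGA had from 0 to 2 counts. At an adjusted p under 0.001, edgeR called none of these 10 markers, DESeq2 called 1 endoderm marker lower, and at an unadjusted p under 0.05 the lists had 1 higher and 5 lower and 0 higher and 1 lower, beside 11.8% higher and 14.5% lower of all genes tested. Of the neuroectoderm markers, 6 of 10 were tested, and edgeR called PAX6 higher and SIX6 lower at 0.001, beside 1.42% and 2.54% of all genes tested, with 3 higher and 1 lower at an unadjusted p under 0.05. SOX1, also named after its value was seen, had a log2 fold change of 1.29 (edgeR adjusted p = 0.0174). The part of these markers in the members' values was not tested.

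At the threshold of the study's methods, an adjusted p under 0.001, SMAD7 was the 1 member of 9 that passed, with more RNA in S6K1-/- hESCs, and no member passed with less. Over all 19521 genes tested with edgeR's quasi-likelihood test, 3.96% passed (1.42% higher and 2.54% lower). At an unadjusted p under 0.05, 5 members were higher and 2 lower, beside 11.8% and 14.5% of all genes tested. With DESeq2 at an adjusted p under 0.001, 2 members were higher and none lower, beside 1.66% and 2.35% of the same genes. At an adjusted p under 0.05, where the background was 13.8% in all, 5.47% higher and 8.31% lower, 4 members were higher (SMAD7, SKIL, SMAD3 and PMEPA1) and 1 was lower (TGFB2). The differences were small: the log2 fold change ran from -0.47 for TGFB2 to 0.31 for SMAD7, with a median of 0.15 over the 9 members beside -0.00 over all genes tested. For 6 of the 9 members the WT and S6K1-/- values were fully separate, 4 of them higher and 2 lower, beside 30.7% of all genes tested (14% higher and 16.7% lower). In bulk RNA, fewer cells that express a gene and less of its RNA per cell cannot be told apart.

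**Figure D1:**
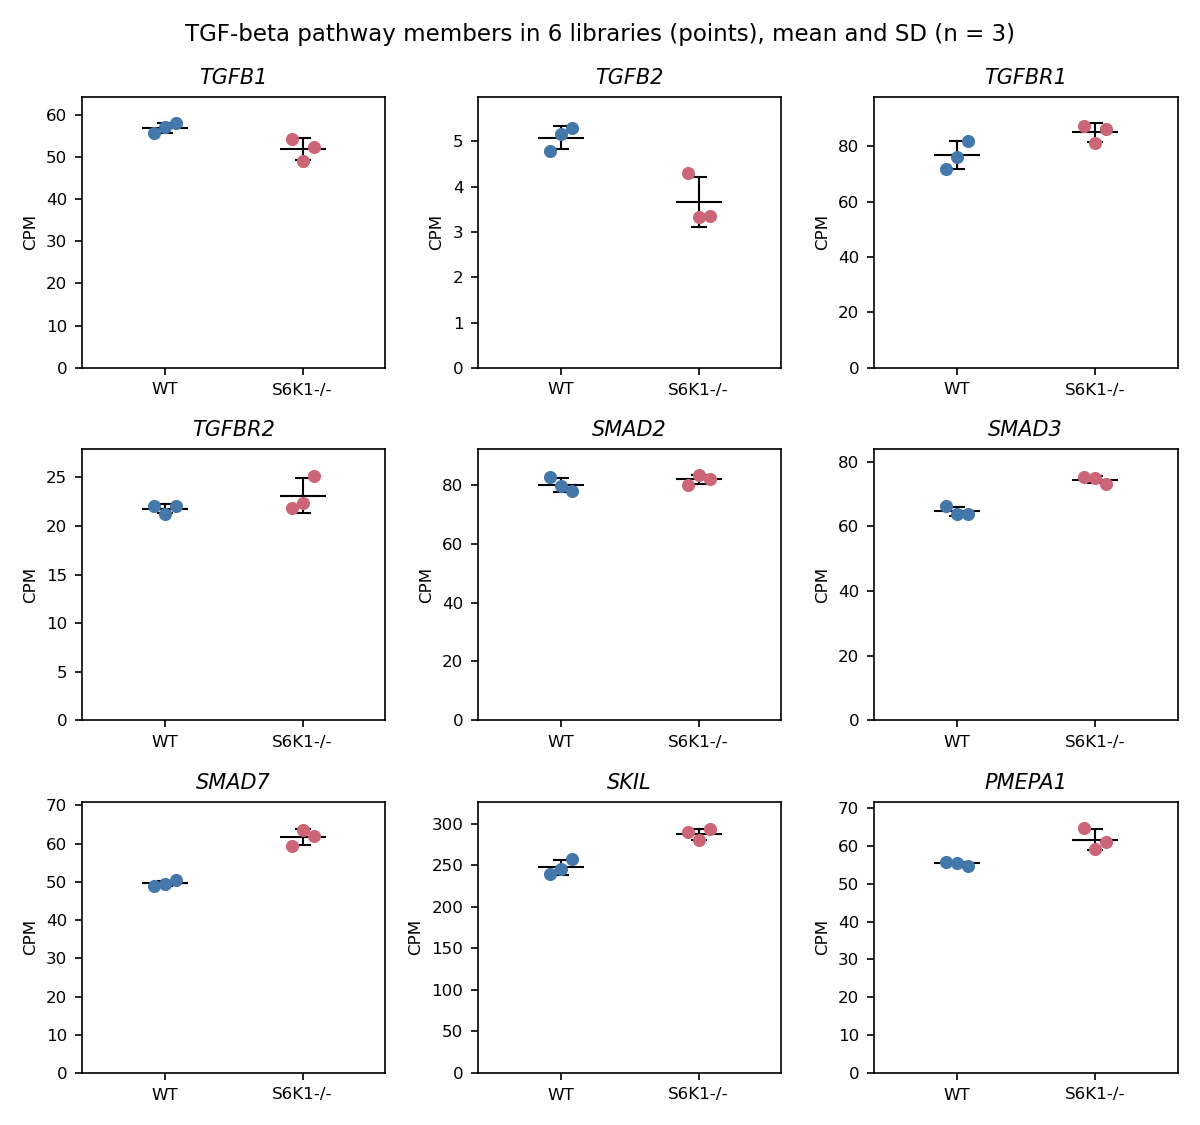
CPM (y axis from 0) of the 9 members in the 3 WT and 3 S6K1-/- libraries, with points for libraries and marks for the mean and SD. The groups are separate for TGFB1, TGFB2, SMAD3, SMAD7, SKIL and PMEPA1, and they overlap for TGFBR1, TGFBR2 and SMAD2.

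**Figure D2:**
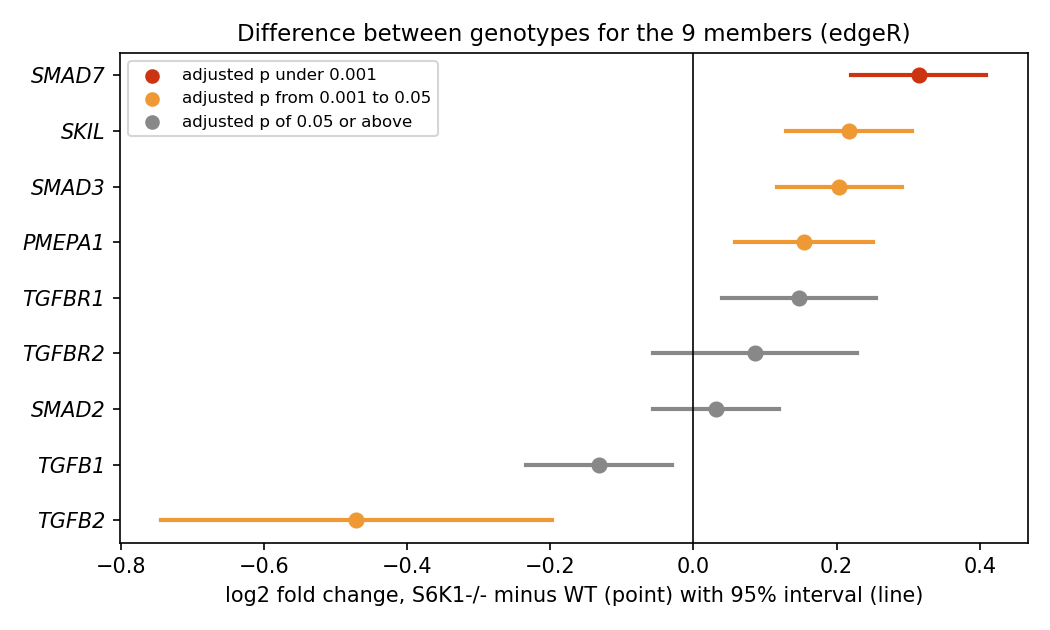
Log2 fold change of S6K1-/- against WT hESCs (x axis) for each member, with its 95% interval from the edgeR fit. SMAD7 at 0.31 is the only member past an adjusted p of 0.001, and the intervals of TGFBR2 and SMAD2 include 0.

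Of the ligands, TGFB1 was well expressed and TGFB2 was sparse. TGFB1 lies on the minus strand of chromosome 19 from 41301587 to 41353922 (GENCODE 44 on GRCh38, as for all positions here). It had 55.7, 57.0 and 57.9 CPM in WT and 54.2, 49.1 and 52.4 CPM in S6K1-/- hESCs. Every S6K1-/- library was below every WT library, but S6K1-/- replicate 1 came close to them, and the log2 fold change of -0.13 (95% interval -0.23 to -0.03) did not pass either threshold (edgeR adjusted p = 0.0838). TGFB1 shares 215 exonic bases with HNRNPUL1 on the opposite strand, and the strand setting of the counting is not given in the sources used here.

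TGFB2, on the plus strand of chromosome 1 from 218345336 to 218444619, had 117, 127 and 123 counts in WT and 101, 80 and 73 in S6K1-/- hESCs. On the CPM scale this was 5.08 ± 0.253 against 3.66 ± 0.550, again with S6K1-/- replicate 1 nearest to WT. The log2 fold change was -0.47 (standard error 0.128), a percent change of -27.9% with a 95% interval from -40.3% to -12.8%. Its adjusted p of 0.0224 from edgeR passed 0.05, and DESeq2's Wald test gave 0.137. With 1 library left out, it stayed under 0.05 only without WT replicate 1 (0.0408) or S6K1-/- replicate 1 (0.0106), and it reached 0.0909 without S6K1-/- replicate 2. An antisense gene, TGFB2-AS1, had from 3 to 8 counts per library and shares 701 exonic bases with TGFB2. On the same strand, TGFB2-OT1 shares 1371 bases, 22.7% of the exon length of TGFB2, and had 0 counts in every library. How reads in shared exons were counted is not given in the sources used here, so the TGFB2 level may be too low. The third ligand, TGFB3, which was not a member, had 1.22 ± 0.284 CPM in WT and 0.934 ± 0.297 CPM in S6K1-/- hESCs, with overlapping libraries.

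The receptors did not pass either threshold. TGFBR1, the type I receptor kinase that phosphorylates SMAD2 and SMAD3, lies on the plus strand of chromosome 9 from 99104038 to 99154192. It had 71.9, 76.1 and 82.0 CPM in WT and 87.4, 81.2 and 86.2 CPM in S6K1-/- hESCs. WT replicate 3 reached above S6K1-/- replicate 2, so the groups overlapped, and the log2 fold change was 0.15 (95% interval 0.04 to 0.26, edgeR adjusted p = 0.0672). Without WT replicate 3, the highest WT library, it was 0.20 with an adjusted p of 0.0213.
TGFBR2, the type II receptor that binds the ligand and activates TGFBR1, lies on the plus strand of chromosome 3 from 30606601 to 30694142. It had 538, 523 and 512 counts in WT and 514, 536 and 549 in S6K1-/- hESCs, or 21.8 ± 0.459 CPM against 23.1 ± 1.79 CPM. On the CPM scale S6K1-/- replicate 3 stood above the rest and replicate 1 lay within the WT range, so the groups overlapped. The log2 fold change of 0.09 had a 95% interval from -0.06 to 0.23, or a percent change from -3.81% to 17.1% (edgeR adjusted p = 0.458). Without S6K1-/- replicate 3 the log2 fold change was 0.03, and without S6K1-/- replicate 1 it was 0.13.

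SMAD2 and SMAD3 are the transducers that the receptor phosphorylates. SMAD2 lies on the minus strand of chromosome 18 from 47808957 to 47931146. It had 82.5, 79.6 and 77.9 CPM in WT and 80.0, 83.3 and 82.1 CPM in S6K1-/- hESCs. The ranges overlapped, with S6K1-/- replicates 1 and 3 within the WT range and replicate 2 just above it, and the log2 fold change was 0.03 (95% interval -0.06 to 0.12, edgeR adjusted p = 0.683), and from 0.02 to 0.06 with a library left out.
SMAD3, on the plus strand of chromosome 15 from 67063763 to 67195173, had 66.3, 63.9 and 63.9 CPM in WT and 75.4, 74.9 and 73.1 CPM in S6K1-/- hESCs. The lowest S6K1-/- library lay well above the highest WT library. This was 15.2% more RNA (95% interval 8.41% to 22.3%), a log2 fold change of 0.20 (standard error 0.0409) with an edgeR adjusted p of 0.00322, short of 0.001. Leaving out any 1 library kept the adjusted p between 0.00604 and 0.0215.

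SMAD7, an inhibitory SMAD that binds the activated receptor and brings ubiquitin ligases to it, rose. It lies on the minus strand of chromosome 18 from 48919853 to 48950965, and none of its exons overlap those of another gene in the annotation. It had 1196, 1218 and 1172 counts in WT and 1398, 1526 and 1353 in S6K1-/- hESCs. On the CPM scale the values were 49.1, 49.5 and 50.4 against 59.5, 63.6 and 62.1, so that the WT libraries lay within a narrow band and all S6K1-/- libraries above it. The rise was 24.4% (95% interval 16.5% to 32.8%), a log2 fold change of 0.31 (standard error 0.0443, edgeR adjusted p = 0.00016), and its p ranked 500 among the 19521 genes tested. The change did not rest on a single library in size, with a log2 fold change from 0.29 to 0.34 over the 6 fits with a library removed. The call at 0.001 did: the adjusted p was 0.00114 without WT replicate 1, 0.00134 without S6K1-/- replicate 2 and 0.00115 without S6K1-/- replicate 3.
Ranked by Pearson's r of log2 CPM over the 6 libraries among 16805 genes whose mean reached 1 CPM, the gene closest to SMAD7 was TENT5C (r = 0.998). Its own log2 fold change was 0.39 (edgeR adjusted p = 0.0605). With 6 libraries in 2 groups, 325 genes had an r above 0.95, so the rank is a description of these libraries.

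The promoters of SMAD7 and TGFB2 are shown because these members had the highest and the lowest log2 fold change. Each line gives the 250 bases before the RefSeq start on GRCh38.p14, 5′ to 3′ in the direction of the gene, with capitals for CAGAC or its reverse complement GTCTG, the short box that SMAD3 and SMAD4 can bind.
SMAD7, chr18:48950966-48951215, minus strand: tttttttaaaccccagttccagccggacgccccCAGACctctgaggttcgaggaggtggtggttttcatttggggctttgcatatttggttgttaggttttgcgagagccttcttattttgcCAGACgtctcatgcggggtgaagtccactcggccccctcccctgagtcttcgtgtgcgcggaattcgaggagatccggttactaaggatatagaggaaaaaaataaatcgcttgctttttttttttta
TGFB2, chr1:218345086-218345335, plus strand: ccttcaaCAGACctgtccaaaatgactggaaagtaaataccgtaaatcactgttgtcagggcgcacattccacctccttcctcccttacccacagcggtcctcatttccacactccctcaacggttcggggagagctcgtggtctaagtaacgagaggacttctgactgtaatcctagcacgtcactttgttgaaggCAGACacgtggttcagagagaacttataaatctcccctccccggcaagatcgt
Both windows held 2 such boxes, whose first base was at -217 and -128 from the start of SMAD7 and at -243 and -53 from that of TGFB2. A single box lay at -107 from the RefSeq start of SKIL and at -213 from that of TGFBR1. Each is shown with its flanks because these members hold the other matches.
SKIL, chr3:170357596-170357624, plus strand: gacggcggcggcGTCTGcgggaagctgtg
TGFBR1, chr9:99104888-99104916, plus strand: gccggggctgggGTCTGgcggcccagccc
In all, 4 of the 9 members held CAGAC on either strand, beside 37.8% of 27305 promoters of the same length. The palindrome GTCTAGAC, a SMAD-binding element, was in none of the 9 windows and in 0.176% of all promoters. TGANTCA, the AP-1 motif, was in none of the 9 and in 6.60% of all, and CATTCC, the TEAD motif, was in the window of TGFB2 alone among the members and in 11.9% of all. All were searched on both strands, and none of the other motifs contains the CAGAC box. These windows depend on the start site that RefSeq gives and do not cover distal elements. Those of SKIL, TGFBR1, SMAD2 and SMAD3 lie inside the GENCODE span given for the gene, and that of PMEPA1 in part.

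SKIL encodes SnoN, a corepressor that binds SMAD2, SMAD3 and SMAD4. It lies on the plus strand of chromosome 3 from 170357342 to 170396835 and was the most abundant member. It had 5833, 6040 and 5995 counts in WT and 6807, 6720 and 6389 in S6K1-/- hESCs, or 239, 245 and 258 CPM against 289.5, 280.3 and 293 CPM. All S6K1-/- libraries were above all WT libraries. The gene had 16.2% more RNA (95% interval 9.36% to 23.5%), a log2 fold change of 0.22 (standard error 0.0412) with an edgeR adjusted p of 0.00211. On this gene the tools differed in the call, since DESeq2's Wald test gave 8.07e-06 and the edgeR fit without a filter on low counts 1.97e-05, both under 0.001. With each library left out the adjusted p lay between 0.0026 and 0.0139. SKI, the related corepressor, had 96.3 ± 1.69 CPM in WT and 93.2 ± 3.82 CPM in S6K1-/- hESCs and a log2 fold change of -0.05 (edgeR adjusted p = 0.529).
PMEPA1 encodes a membrane protein that holds SMAD2 and SMAD3 away from the receptor. It lies on the minus strand of chromosome 20 from 57648392 to 57711536. It had 55.8, 55.4 and 54.8 CPM in WT and 64.7, 59.2 and 60.9 CPM in S6K1-/- hESCs. The WT libraries were close to each other and all S6K1-/- libraries were higher, replicate 1 the most. The log2 fold change of 0.15 (standard error 0.0454, edgeR adjusted p = 0.0340) corresponds to 11.3% more RNA, and DESeq2's Wald test gave an adjusted p of 0.0804. It passed 0.05 in 1 of the 6 fits with a library left out, that without S6K1-/- replicate 2 (0.0277), and reached 0.187 without S6K1-/- replicate 1. NKILA, on the opposite strand, had from 107 to 134 counts and shares 343 exonic bases with PMEPA1.

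Divided by the length of all annotated exons, the levels of the members spanned from 30.5 CPM per kilobase for SKIL to 0.840 for TGFB2 in WT hESCs. Between them stood TGFB1 (17.4), SMAD7 (12.6), PMEPA1 (9.65), TGFBR1 (9.60), SMAD3 (6.46), TGFBR2 (3.18) and SMAD2 (2.20 CPM per kilobase). In WT the only neighbours in this order with overlapping libraries were PMEPA1 and TGFBR1. In S6K1-/- hESCs the order of the means was the same, with SKIL at 35.4 and TGFB2 at 0.605 CPM per kilobase, and TGFB1 (15.9) and SMAD7 (15.6) then overlapped as well. The middle of this order depends on the length used. By coding length in WT, SMAD2, whose annotated exons span 36426 bases, ranked 2 of the 9 in place of 8, SMAD7 ranked 7 in place of 3, and TGFB1 ranked 5 in place of 2. SKIL was first and TGFB2 last by exon length, by the length of 1 transcript and by coding length.

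Ratios within a library do not depend on how libraries are scaled, and 5 were compared. With 3 libraries against 3, the two-sided exact permutation test cannot go below p = 0.1. The log2 ratio of SMAD2 to SMAD3 per exon length was -1.55, -1.55 and -1.58 in WT and -1.78, -1.71 and -1.70 in S6K1-/- hESCs. Each S6K1-/- library lay below each WT library, a difference of -0.17 (exact permutation p = 0.1, adjusted 0.167). SKIL to SKI went from a log2 ratio of 1.08 ± 0.0324 to 1.35 ± 0.0661, and TGFB2 to TGFB1 from -4.38 ± 0.0449 to -4.73 ± 0.160, also with no overlap (exact permutation p = 0.1 and adjusted 0.167 for each). Overlap remained for SMAD7 to SMAD3, with a difference of 0.11 (exact permutation p = 0.2, adjusted 0.25), and for TGFBR2 to TGFBR1, with a difference of -0.06 (p = 0.5, exact permutation test). The last difference was between -0.12 and -0.00 with a library left out, nearest to 0 without S6K1-/- replicate 1 (-0.0036) or WT replicate 1 (-0.0093). SMAD7 and SMAD3 were both higher at an adjusted p under 0.05.

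Of the wider pathway, 88 genes in 5 lists by role were read from the same fit, and 80 of them were tested. At an adjusted p under 0.001, 1 was higher and 10 were lower, beside 1.42% and 2.54% of all genes tested. Their median log2 fold change was -0.06. These lists were written with earlier results of these data known, so their counts are not independent evidence.
The genes that release or hold the ligand numbered 14 tested, of which 1 was lower and none higher. DESeq2 called 0 higher and 1 lower, beside 1.66% and 2.35% of all genes tested. Those with an unadjusted p under 0.05 were 2 higher and 6 lower, beside 11.8% and 14.5%. THBS1, a matrix protein that activates latent TGFβ, fell from 25.8 ± 2.34 CPM in WT to 19.3 ± 0.634 in S6K1-/- hESCs (log2 fold change -0.42, edgeR adjusted p = 0.000836). Its call held only without WT replicate 2 among the fits with a library left out, and the adjusted p was from 0.0034 to 0.00877 in the others. It was also lost with the replicate number as a block (0.00165) and with DESeq2's size factors.
Among the other receptors of the family, with 11 tested, no gene passed 0.001 in either direction with edgeR or with DESeq2, and 2 were higher and 3 lower at an unadjusted p under 0.05, where the background was 11.8% and 14.5%. The other SMADs, SMAD1, SMAD4, SMAD5, SMAD6 and SMAD9, were all tested, and none was called by edgeR or DESeq2 or had an unadjusted p under 0.05. SMAD4, the shared partner of SMAD2 and SMAD3, differed by 0.08 on the log2 scale (standard error 0.0487). SMAD6, the other inhibitory SMAD, had -0.02 (standard error 0.0804) with 14.3 ± 1.44 CPM in WT and 14.1 ± 0.521 CPM in S6K1-/- hESCs.
Of 24 regulators of receptors and SMADs tested, 1 was lower and none was higher. DESeq2 called 0 higher and 1 lower, beside 1.66% and 2.35% of all genes tested. Those with an unadjusted p under 0.05 were 1 higher and 4 lower, beside 11.8% and 14.5%. CAV1, which encodes the main protein of caveolae and takes part in receptor turnover, fell from 30.7 ± 1.85 CPM in WT to 20.4 ± 1.27 in S6K1-/- hESCs (log2 fold change -0.59, edgeR adjusted p = 1.91e-05).

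Other genes known as targets of TGFβ held most of the calls. Of 26 tested, 8 were lower and 1 was higher at an adjusted p under 0.001, beside 2.54% and 1.42% of all genes tested, and their median log2 fold change was -0.37. DESeq2 also called 8 lower and 1 higher, beside 2.35% and 1.66% of all genes tested. Those with an unadjusted p under 0.05 were 14 lower and 6 higher, beside 14.5% and 11.8%. CCN2, a matricellular growth factor, had 2764, 2599 and 2728 counts in WT and 589, 568 and 618 in S6K1-/- hESCs, which gave a log2 fold change of -2.13 (edgeR adjusted p = 4.52e-12). COL1A1, a chain of type I collagen, fell from 80.0 ± 1.72 CPM in WT to 23.1 ± 1.75 in S6K1-/- hESCs, and TAGLN, an actin-binding protein, from 54.5 ± 1.91 to 22.9 ± 1.05 CPM. CCN1, a relative of CCN2, fell by 1.13 on the log2 scale. CCN1 and CCN2 are also known targets of YAP and TEAD, and TAGLN of SRF.
MMP2, a gelatinase and the gene called higher, is named after its values were seen. It had 65.7 ± 1.79 CPM in WT and 78.1 ± 0.216 CPM in S6K1-/- hESCs, and its call at 0.001 held only without WT replicate 2 among the fits with a library left out. Markers of mesenchyme, a cell type in which these matrix genes are high, included 2 genes called lower of 5 tested, beside 2.54% of all genes tested: PDGFRB went from 7.89 ± 0.927 to 3.10 ± 0.528 CPM and TWIST2 from 7.61 ± 0.560 to 3.78 ± 0.388 CPM. At an unadjusted p under 0.05, 0 were higher and 3 lower, beside 11.8% and 14.5% of all genes tested. Of the 5, 4 had a log2 fold change below 0 and 1 above, with a median of -0.53. The summed level of the 10 mesenchyme markers, nearly all of it THY1, was from 492 to 515 CPM in WT and from 479 to 500.4 CPM in S6K1-/- hESCs, FAP had no counts, and the part of these markers in the lower matrix genes was not tested.

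**Figure D3:**
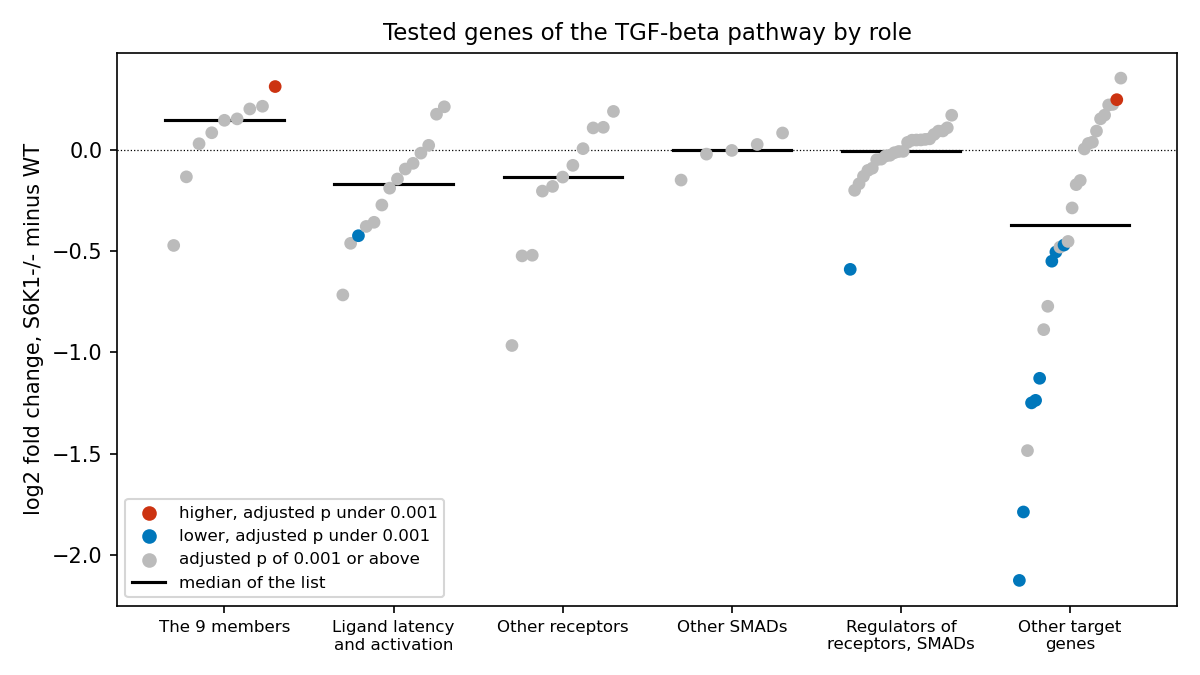
Log2 fold change of S6K1-/- against WT hESCs (y axis) for the tested genes of each role, with a black line at each list's median and colour for genes at an adjusted p under 0.001. The 9 members have a median of 0.15, while the other target genes have a median of -0.37 and hold 8 of the 10 lower genes.

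Neighbouring branches use the same SMADs or receptors of the same family. Of 12 genes tested in the Nodal and activin branch, 1 was higher and 3 were lower at an adjusted p under 0.001. The shares of all genes tested were 1.42% and 2.54%. An unadjusted p under 0.05 was reached by 2 higher and 5 lower genes, beside 11.8% and 14.5% of all genes tested. The higher gene was GDF3, a ligand, and the lower genes were LEFTY2 and CER1, which encode antagonists of Nodal, and INHBA, an activin subunit. GDF3 had 33.9 ± 1.25 CPM in WT and 42.9 ± 1.78 in S6K1-/- hESCs, LEFTY2 16.1 ± 0.457 and 8.61 ± 0.535, CER1 2.42 ± 0.420 and 0.496 ± 0.167, and INHBA 0.919 ± 0.261 and 0.204 ± 0.0617. INHBA rests on few counts, 21, 17 and 28 in WT and 4, 4 and 6 in S6K1-/- hESCs. Its edgeR adjusted p of 0.000956 was just under 0.001. DESeq2 called 1 gene of this list higher and 2 lower, beside 1.66% and 2.35% of all genes tested. The BMP branch, also with 12 tested, had 1 gene higher and 1 lower at an adjusted p under 0.001, beside 1.42% and 2.54%. Its 2 higher and 4 lower genes at an unadjusted p under 0.05 stand beside 11.8% and 14.5% of all genes tested. ID2, a target of BMP, rose from 16.7 ± 1.42 to 22.4 ± 0.0515 CPM, and FSTL1, a secreted glycoprotein that binds BMPs, fell from 444 ± 6.89 to 326 ± 3.41 CPM. The other ID genes, named after their values were seen, did not pass 0.001, with log2 fold changes of 0.08 for ID1, 0.04 for ID3 and -0.50 for ID4 (edgeR adjusted p = 0.0192 for ID4).

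How far the member calls depend on the fit is plotted for the 5 members under an adjusted p of 0.05. SMAD7, SKIL and SMAD3 stayed under 0.05 in every fit shown, whereas TGFB2 and PMEPA1 did so in some.

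**Figure D4:**
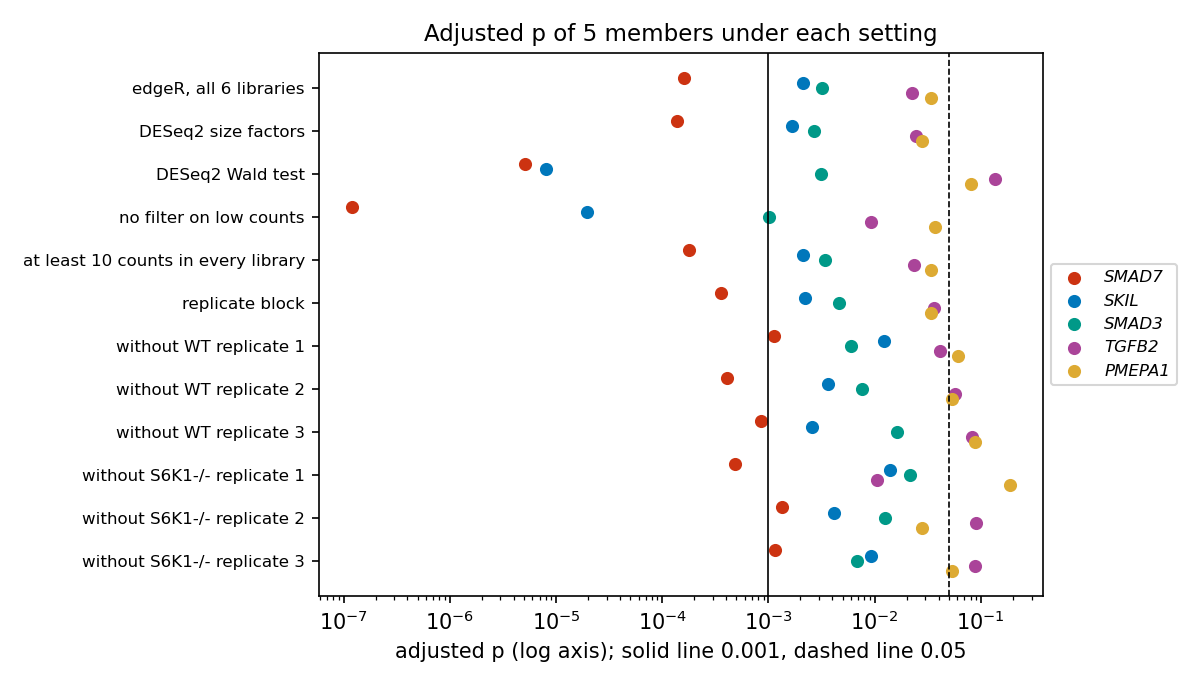
Adjusted p (x axis, log scale) of SMAD7, SKIL, SMAD3, TGFB2 and PMEPA1 under each tool, filter and set of libraries (rows), with lines at 0.001 and 0.05. SMAD7 lies between 1.21e-07 and 0.00134, and PMEPA1 reaches 0.187 without S6K1-/- replicate 1.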

How the data were processed

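H7 hESC RNA was compared between 3 WT and 3 S6K1-/- libraries (TruSeq Stranded mRNA, paired-end reads). Per the methods and the labels, the authors trimmed reads with Trim Galore 0.6.5, aligned them to GRCh38 with Bowtie2 2.4.5, which does not align across splice junctions, and deposited raw counts per gene symbol from featureCounts. The annotation release and strand setting are not given in the sources used here. A second deposited table holds fold changes, p-values and calls of the authors' own comparison and was not used. 

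Genes were kept with filterByExpr (19521 of 61155), scaled by TMM and tested with edgeR 4.0.16 (R 4.3.3, quasi-likelihood test, genotype as the only factor), with Benjamini-Hochberg adjustment over all genes tested. Intervals are at 95%. CPM use the library total times the TMM factor. DESeq2 1.42.0, other filters and scalings, the replicate number as a block and fits without each library were alternatives. Same-numbered libraries did not deviate together (r from 0.00549 to 0.0391), so the numbers do not pair them. Libraries of a group differed by more than counting noise (ratio of the chi-square statistic to its degrees of freedom between 1.74 and 3.06). Lengths and positions come from GENCODE 44, promoters from RefSeq, in which all 9 members matched. The steps were tested on simulated counts. Besides the members, the text names RPS6KB1, RPS6KB2, called genes of each list (up to 4 by p, or 3 for marker lists), and the 2 genes most like a called member, except where a gene is not reported here. Members and lists were chosen with earlier results of these data known.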

Additional observations from a re-analysis of the deposited data

How the results depend on the processing

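No member's log2 fold change changed sign under the alternatives run, SMAD7 lost its call in 3 of the 6 fits with a library left out, and SKIL alone gained one in another fit. Members called higher numbered 2 with DESeq2's Wald test and 2 without the filter on low counts (SMAD7 and SKIL), and from 0 to 1 with a library left out. At an adjusted p under 0.05 they were 4 higher and 1 lower. Of the pathway lists, 2 genes were higher without the filter and 6 at 0.05, where 19 were lower, and from 0 to 1 were higher and from 8 to 9 lower with a library left out. With the replicate number as a block, 0 pathway genes were higher (MMP2 at an adjusted p of 0.00122) and 9 lower, and no member's call changed. Over all genes, the numbers higher and lower were 591 and 982 without the filter, 1067 and 1622 at 0.05, and from 175 to 235 and from 313 to 445 with a library left out, lowest without S6K1-/- replicates 1 and 3. The cause was not tested, except that 0.05 is by construction the looser threshold. With DESeq2's size factors the median log2 fold change of all genes moved by 0.00657. The differences of the 5 ratios kept their sign with each library left out, that of TGFB2 to TGFB1 between -0.44 and -0.28, whereas the levels of the ratios depend on the length used: SMAD2 to SMAD3 in WT was -1.56 by exon length, -2.11 by 1 transcript and 0.40 by coding length. Depth limits TGFB2 most, with from 73 to 127 counts per library.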
